A study of Homo sapiens with 3 samples.

Results

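Long non-coding RNAs (lncRNAs) that are linked to cancer and had high counts among the RNAs recovered with CTCF are described here: CYTOR, MIR4435-2HG, PVT1, LINC02055, DUXAP8, DUXAP9 and DUXAP10. They were chosen by name with their counts known, so that their high counts are a description and were not tested. All 7 were listed, out of 17201 listed genes, of which 2809 were long non-coding (annotated as lincRNA, antisense, processed transcript, sense intronic, sense overlapping or 3′ overlapping). CTCF is a zinc-finger protein that binds DNA and shapes chromatin loops. PAR-CLIP of CTCF was done in U2OS, a human osteosarcoma line, after a pulse of 400 µM 4-thiouridine for 16 to 24 h. Irradiation was at 365 nm with 400 mJ per square cm. The libraries of 2 biological replicates made with different antibody lots were merged. The merge is the 1 sample with a processed file used here, and no control precipitation was analysed.

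Every value below is therefore a single number with no replicate error and no p-value. Intervals on counts are exact 95% Poisson intervals, those on shares are exact Clopper-Pearson intervals, and those on ratios are derived from the latter. All cover counting error only, and reads amplified by PCR are not independent molecules. The counts summed to 1322047 over the listed genes, and the table starts at 6, so that a gene missing from it was either below that value or never counted. The amount of an RNA in the nucleus and its contact with CTCF cannot be told apart from these counts. Of 14 markers of osteosarcoma and mesenchymal cells, 9 were listed, among them fibronectin (FN1) with 1277 counts, the collagen gene COL1A1 with 602 and the bone regulator RUNX2 with 164. ALPL with 8 counts and PRRX1 with 10 were also among the 9, close to the lowest value of 6. The bone genes SP7, BGLAP and IBSP, as well as COL1A2 and TWIST1, were not listed.

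Long non-coding RNAs are transcribed like messenger RNAs but encode no known protein, and some are named for tumours in which they are abundant. CYTOR, the cytoskeleton regulator RNA, is also known as LINC00152. MIR4435-2HG is the host gene of a microRNA, and its mouse counterpart Morrbid acts on the neighbouring gene for the cell-death protein Bim. CYTOR and MIR4435-2HG lie in duplicated blocks of chromosome 2 and are copies of each other over part of their length. PVT1 lies beside MYC and is often amplified with it in tumours. The DUXAP genes are pseudogenes of the homeobox gene DUXA, and DUXAP8, DUXAP9 and DUXAP10 are transcribed from similar blocks next to the centromeres of chromosomes 14 and 22.

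The copies on chromosome 2 had the highest counts of the 7. CYTOR (ENSG00000222041, hg19 chromosome 2, 87754887 to 87883594) had 1427 counts (1354 to 1503), and only MALAT1, with 6801, was higher among the long non-coding genes. MIR4435-2HG (ENSG00000172965, chromosome 2, 111965353 to 112252625) followed with 1374 counts (1302 to 1449). CYTOR held 50.9% of their 2801 counts (49.1 to 52.8%), so that the counts of the copies did not differ beyond counting error.

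How alike the copies are around their start sites is shown by the sequence there, with the run that both share in capitals. Each window runs from 250 bases before to 50 bases after the RefSeq start on the transcribed strand. In GRCh38.p14 the window of CYTOR is chr2:87455177-87455476 on the plus strand and that of MIR4435-2HG is chr2:111495112-111495411 on the minus strand.
CYTOR: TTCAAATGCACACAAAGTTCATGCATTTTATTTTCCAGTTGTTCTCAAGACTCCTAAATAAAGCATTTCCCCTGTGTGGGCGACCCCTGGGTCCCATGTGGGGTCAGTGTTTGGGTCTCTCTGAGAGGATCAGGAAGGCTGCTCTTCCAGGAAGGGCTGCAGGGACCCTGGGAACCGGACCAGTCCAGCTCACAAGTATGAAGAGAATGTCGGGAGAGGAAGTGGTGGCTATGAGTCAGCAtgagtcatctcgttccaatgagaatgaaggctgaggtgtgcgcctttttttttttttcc
MIR4435-2HG: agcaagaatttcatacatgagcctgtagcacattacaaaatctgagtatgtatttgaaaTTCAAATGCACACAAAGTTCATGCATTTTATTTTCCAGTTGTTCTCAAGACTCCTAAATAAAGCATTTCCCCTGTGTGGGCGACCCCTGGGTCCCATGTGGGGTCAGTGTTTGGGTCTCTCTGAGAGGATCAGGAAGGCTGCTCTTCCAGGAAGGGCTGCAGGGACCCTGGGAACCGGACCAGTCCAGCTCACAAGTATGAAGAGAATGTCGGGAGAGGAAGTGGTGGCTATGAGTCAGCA
Shifted by 59 bases, the windows matched at 241 of 241 aligned bases, with 0 differences. In CYTOR the shared run, bases 1 to 241 of its window, lies wholly before the RefSeq start. In MIR4435-2HG it covers bases 60 to 300 and so extends past the start. The run ends where the windows end, so the bases in lower case had no counterpart to be compared with. Where the likeness stops is therefore not shown. Sequence after the start of CYTOR was not compared, and neither was the rest of the transcripts. A read from a stretch that both copies share would have no single place of origin. Whether reads with several places were kept, and how they were assigned, is not given in the sources used here. RefSeq windows were found for 2 of the 7 members.

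The likeness extends to the microRNA that gives MIR4435-2HG its name. The hairpins of MIR4435-1 (chr2:87629755-87629834, plus strand) and MIR4435-2 (chr2:111321013-111321086, minus strand) carry the same mature sequence of 22 bases, shown with its seed (bases 2 to 8) in capitals and credited to RefSeq (GRCh38.p14).
hsa-miR-4435: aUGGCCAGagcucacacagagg
The shorter hairpin of 74 bases was contained whole in the longer of 80 bases. Neither MIR4435-1 nor MIR4435-2 was itself listed, and of the 5 microRNA genes of the PVT1 locus on the gene list (MIR1204 to MIR1208) none (0) was listed.

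Counted per length, the copies parted. CYTOR had 11.1 counts per kb (10.5 to 11.7) over 129 kb, and MIR4435-2HG had 4.78 per kb (4.53 to 5.04) over 287 kb, a ratio of 2.32 (2.15 to 2.50). No listed gene overlapped CYTOR. The MIR4435-2HG interval held 2 other lincRNA genes that have no name here, with 37 and 19 counts, and overlapped the lincRNA SOCAR (63 counts) over 3.78 kb at its end. Counts in the inner genes made up 4.08% of those of MIR4435-2HG, and without them CYTOR held 52.0% of the remaining counts of the pair.

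The genes around the copies had lower counts. Within 1000 kb on either side of CYTOR lay 16 other listed genes with a median of 53 counts and a maximum of 153, all below CYTOR both in counts and in counts per kb. Nearest on the side of higher coordinates was ANAPC1P4, a pseudogene of the cell-cycle ligase gene ANAPC1, with 117 counts at 117 kb from CYTOR. Per kb CYTOR was 3.52 times as high as ANAPC1P4 (2.91 to 4.28). Around MIR4435-2HG lay 17 listed genes with a median of 28 counts, led by the mitotic checkpoint kinase gene BUB1 with 177. Per kb 14 of these 17 were below the 4.78 of MIR4435-2HG, and the pseudogenes RPL5P9, RPL22P12 and RTRAFP1, named after their values were seen, were above it with 35.0, 20.7 and 12.2. ANAPC1 itself, 271 kb away, had 96 counts, and MIR4435-2HG was 4.51 times as high per kb (3.67 to 5.61). ACOXL, the nearest listed protein-coding gene on the other side, had 35 counts, or 0.0967 per kb. BCL2L11, the gene for Bim, was not listed.

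Other genes on the list for the duplicated chromosome 2 blocks were below both copies. Of its 14 genes 13 were listed, with a median of 60 counts and a range of 8 to 177, against a median of 31 over all listed genes. Per kb, however, their median of 1.05 was below the 1.78 of all listed genes. The list holds genes that exist in several near-identical copies, for which the same doubt over the placing of reads applies. RGPD5, of the family of RANBP2-like genes, had 167 counts, RGPD1 had 104, and RGPD6 had 9. The plasminogen-like genes PLGLB1 and PLGLB2 had 8 and 10.

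The DUXAP genes came next by family, with DUXAP9 well above the other two. DUXAP9 (ENSG00000225210, chromosome 14, 19650018 to 19691922) had 1083 counts (1019 to 1149). DUXAP10 (ENSG00000244306, chromosome 14, 19854098 to 19925327) had 421 counts (382 to 463), and DUXAP8 (ENSG00000206195, chromosome 22, 16147979 to 16192971) had 350 (314 to 389). DUXAP9 held 58.4% of the counts of these 3 genes (56.1 to 60.7%). Its count was 2.57 times that of DUXAP10 (2.30 to 2.89) and 3.09 times that of DUXAP8 (2.74 to 3.50). DUXAP10 and DUXAP8 differed less, by 1.20 times (1.04 to 1.39).

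Per length DUXAP9 was the highest of all 7 members. It had 25.8 counts per kb (24.3 to 27.4) over 41.9 kb, which was 4.37 times the level of DUXAP10 (3.90 to 4.91) and 2.33 times that of CYTOR (2.15 to 2.52). DUXAP8 and DUXAP10 changed places, with 7.78 per kb over 44.99 kb for DUXAP8 and 5.91 per kb over 71.2 kb for DUXAP10, a ratio of DUXAP10 to DUXAP8 of 0.760 (0.658 to 0.878). The other DUX genes that were looked up were absent: of DUXA, DUXB, DUX4 and DUXAP1 to DUXAP7, 0 of 10 genes were listed. Further copies of the family, and listed genes without a symbol, were not searched.

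**Figure D1:**
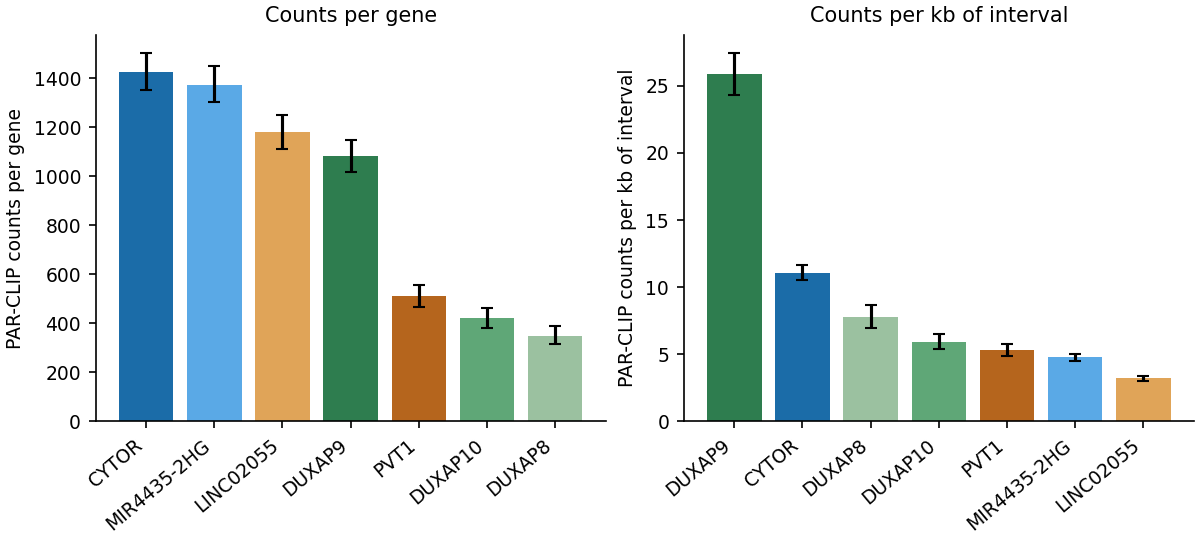
Counts per gene (left) and counts per kb of gene interval (right) of the 7 members in the merged sample, each ordered from high to low, with 95% Poisson intervals as error bars. CYTOR leads by counts with 1427 and DUXAP9 by counts per kb with 25.8.

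Unlike CYTOR, all the DUXAP intervals share bases with other listed genes, so that a read there may enter both counts. Inside DUXAP8 lay 3 listed genes that held 27.4% of its count in 28.1% of its length. One of them, ENSG00000271672, also bears the name DUXAP8 and is annotated as the pseudogene. Its 26 counts in 0.622 kb gave 41.8 counts per kb, 5.72 times the level of the rest of the interval (3.68 to 8.54). BMS1P22, a pseudogene of the ribosome biogenesis gene BMS1, had 59 counts there, or 0.655 times the level of the rest (0.486 to 0.869).

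DUXAP10 held a short pseudogene of the same kind of density. This gene, ENSG00000257977, has no name here and had 24 counts in 0.614 kb, 6.95 times the level of the rest of the DUXAP10 interval (4.40 to 10.5). A second inner gene, a lincRNA with no name here, had 120 counts, and the inner genes together held 34.2% of the DUXAP10 count in 22.02% of its length. In DUXAP9 the only inner gene was BMS1P17, with 49 counts, or 0.584 times the level of the rest (0.429 to 0.778). Across its upper end lay ENSG00000257227, a pseudogene of 0.595 kb with no name here, which had 89 counts, or 149.6 per kb, and shared 0.143 kb with DUXAP9. Without the inner genes DUXAP9, DUXAP10 and DUXAP8 kept 1034, 277 and 254 counts, and the share of DUXAP9 was 66.1%. Subtracting counts in this way assumes that reads were counted over whole intervals. Over all 2435 pairs of an inner and an outer listed gene, the inner gene had more counts in 0.

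Each of these DUXAP genes has a POTE gene, of an ankyrin-repeat family expressed in reproductive tissues and tumours, at a similar distance. POTEM lies 65.2 kb from DUXAP9, POTEG 58.2 kb from DUXAP10 and POTEH 63.5 kb from DUXAP8. DUXAP9, DUXAP10 and DUXAP8 had 1083, 421 and 350 counts, and POTEM, POTEG and POTEH beside them had 246, 119 and 84, in the same order. DUXAP9 had 4.40 times the count of POTEM (3.83 to 5.08), DUXAP10 3.54 times that of POTEG (2.88 to 4.37), and DUXAP8 4.17 times that of POTEH (3.28 to 5.35), with intervals that overlap. Counted per kb, neither likeness held. DUXAP8 was then above DUXAP10, with 7.78 and 5.91 counts per kb, while POTEM, POTEG and POTEH had 7.82, 3.24 and 2.69. Per kb DUXAP10 was 1.82 times as high as POTEG (1.48 to 2.25), below the 3.31 times of DUXAP9 over POTEM (2.88 to 3.81) and the 2.90 times of DUXAP8 over POTEH (2.28 to 3.72). The order by counts is one of 3 blocks, noticed after the values were seen and not tested. Both families consist of similar copies, whose sequences were not compared here, and how reads were placed among them is not known.

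**Figure D2:**
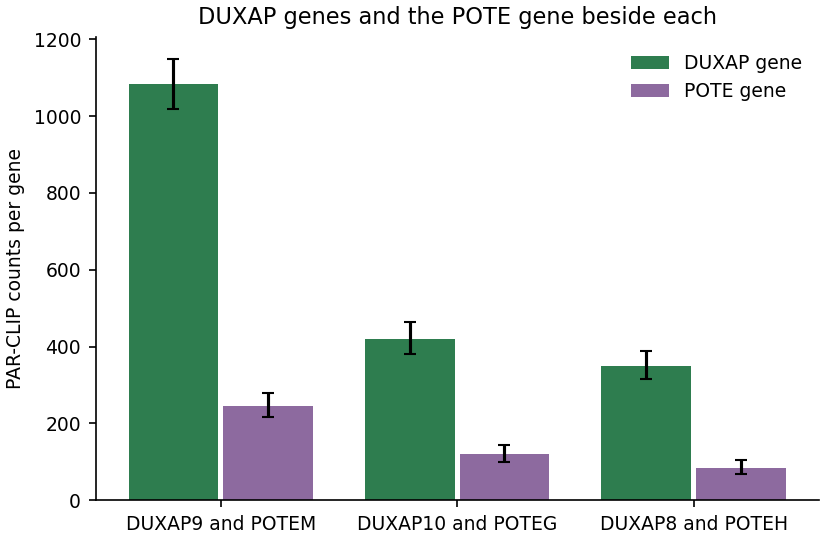
Counts of DUXAP9, DUXAP10 and DUXAP8 (green) and of the POTE gene beside each (purple), with 95% Poisson intervals as error bars. Both families fall in the same order by counts, from 1083 and 246 to 350 and 84, an order that DUXAP10 and DUXAP8 do not keep per kb.

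Of the list of 9 genes other than members in the chromosome 14 and 22 blocks, the 3 POTE genes and BMS1P17 were listed, with a median of 101.5 counts. Of the other names on it, LINC01296 is a synonym of DUXAP9. BMS1P18, LINC01297, CCT8L2 and the olfactory receptor genes OR11H1 and OR11H12 were not listed.

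On chromosome 8, PVT1 had more counts than any listed gene near it, but not more per kb. PVT1 (ENSG00000249859, 128806779 to 128903221) had 512 counts (469 to 558). No listed gene overlapped it, and the 5 listed genes within 1000 kb had a median of 14 counts. MYC, which encodes a growth-promoting transcription factor, was the highest of these 5 with 32 counts (21.9 to 45.2), at 54.1 kb from PVT1. The count of PVT1 was 16.0 times that of MYC (11.2 to 23.6). Per kb, however, PVT1 had 5.31 counts (4.86 to 5.79) and MYC 6.34 in its 5.04 kb interval, a ratio of 0.837 (0.585 to 1.24), which is not distinguishable from 1 at this depth. Of the 5 genes, 2 were below PVT1 per kb, and their median was 6.14 counts per kb.

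Other non-coding genes named for the region had at most 14 counts or were not listed. On the list of 15 genes around MYC, 4 were listed with a median of 22 counts. The prostate cancer RNA PCAT1 had 14 counts over 167 kb, CASC8 had 8 over 132 kb, and the protein-coding LRATD2 had 30. CCAT1, CCAT2, CASC11, CASC19, CASC21, PCAT2, PRNCR1, CCDC26 and others were not listed.

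LINC02055, further along the same chromosome, had a broad interval with no listed gene close by. LINC02055 (ENSG00000254101, 137543041 to 137909844) had 1180 counts (1114 to 1249) over 367 kb, the longest interval of the 7, and its 3.22 counts per kb (3.04 to 3.41) were the lowest of the 7. No listed gene overlapped it, and the nearest one was a lincRNA with 6 counts at a distance of 365 kb. KHDRBS3, for an RNA-binding protein of the STAR family, was the highest of the 5 listed genes within 1000 kb, with 153 counts or 0.805 per kb. Per kb, LINC02055 was above 4 of these 5, whose median was 0.131 per kb, and below the short pseudogene MAPRE1P1 with 16.3, which was named after its value was seen.

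**Figure D3:**
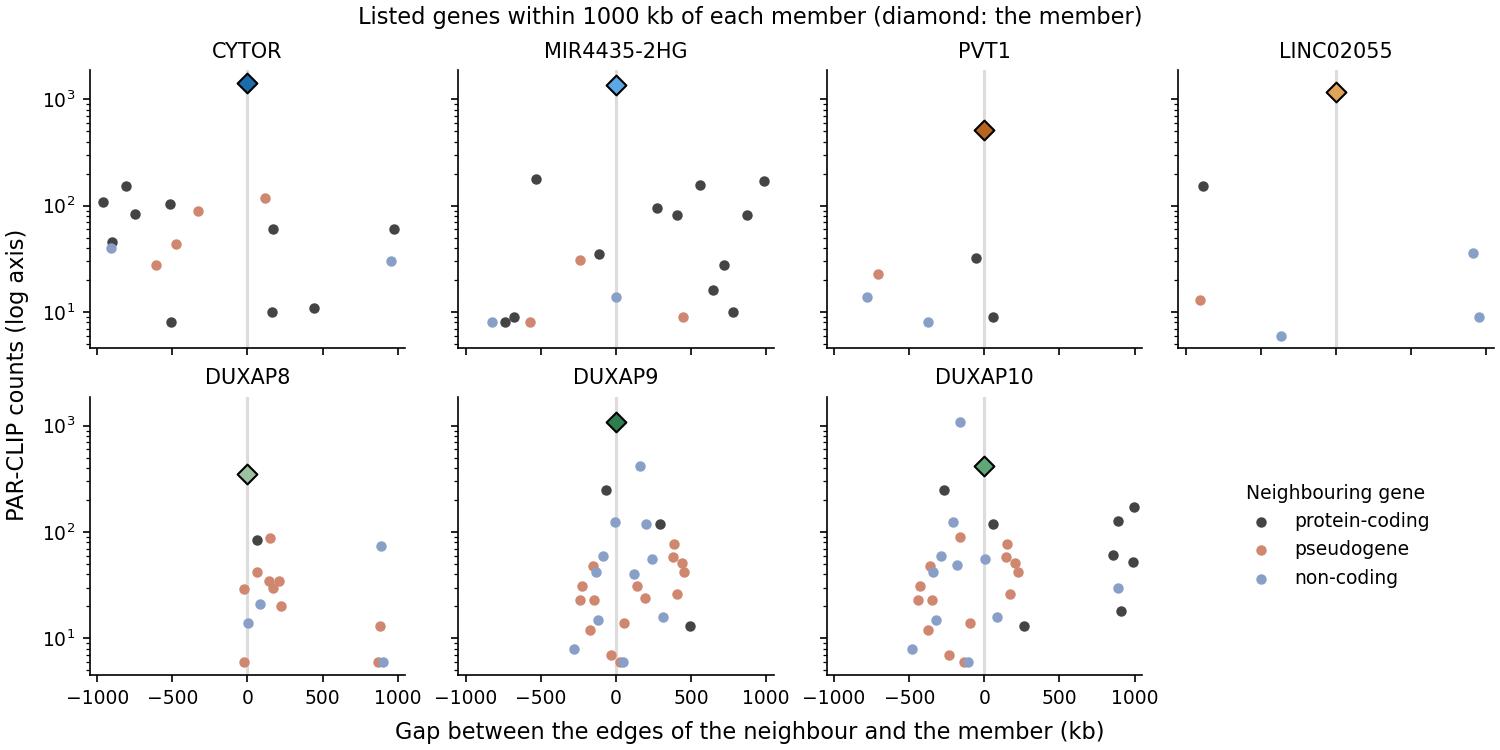
Counts (log axis) of the listed genes that lie within 1000 kb of each member and do not overlap it, against the gap between their edges in kb, coloured by class, with the member as a diamond at 0. Every member is above all of its neighbours except DUXAP10, whose neighbour DUXAP9 has 1083 counts.

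Among the 7, the order by counts was CYTOR, MIR4435-2HG, LINC02055, DUXAP9, PVT1, DUXAP10 and DUXAP8. Of the neighbours in this order, CYTOR and MIR4435-2HG were not separated by their counting error, with a ratio of 1.04 (0.964 to 1.12), and LINC02055 was barely above DUXAP9 at 1.09 (1.00 to 1.18). The largest step was from DUXAP9 to PVT1, at 2.12 (1.90 to 2.35). By counts per kb the order was DUXAP9, CYTOR, DUXAP8, DUXAP10, PVT1, MIR4435-2HG and LINC02055. There, PVT1 was not separated from DUXAP10, at a ratio of 0.898 (0.788 to 1.02), and only just from MIR4435-2HG, at 1.11 (1.00 to 1.23).

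Against all long non-coding genes the 7 ranked 2, 3, 4, 5, 17, 21 and 34 of 2809 by counts. Their median of 1083 counts stands beside 17 for long non-coding genes and 31 for all listed genes, and they made up 5.19% of the summed long non-coding count (5.06 to 5.31%) as 0.249% of the genes. Since the members were chosen with these counts known, the ranks only say where they stand. Per kb the 7 ranked between 79 (DUXAP9) and 779 (LINC02055), and their median of 5.91 counts per kb stands beside 1.28 for long non-coding genes and 1.78 for all listed genes. None (0) was among the 20 highest by that measure, which short genes lead. The members' intervals were long, with a median of 96.4 kb against 17.9 kb for long non-coding genes.

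All 7 were near the top of the genes of their own length. Since they were chosen with their counts known, these places too only say where they stand. Each member was compared with the 344 listed genes in its own of 50 length groups, whatever their class. DUXAP9 was the highest gene of its group (39.1 to 42.2 kb), where the median was 45 counts. CYTOR and MIR4435-2HG were at the 99.7th percentile, against group medians of 86 and 95.5 counts, and LINC02055 was at the 98.5th. PVT1 and DUXAP8 were both at the 97.4th percentile, against group medians of 79 and 53. The lowest was DUXAP10 at the 96.5th percentile, against a median of 71.

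**Figure D4:**
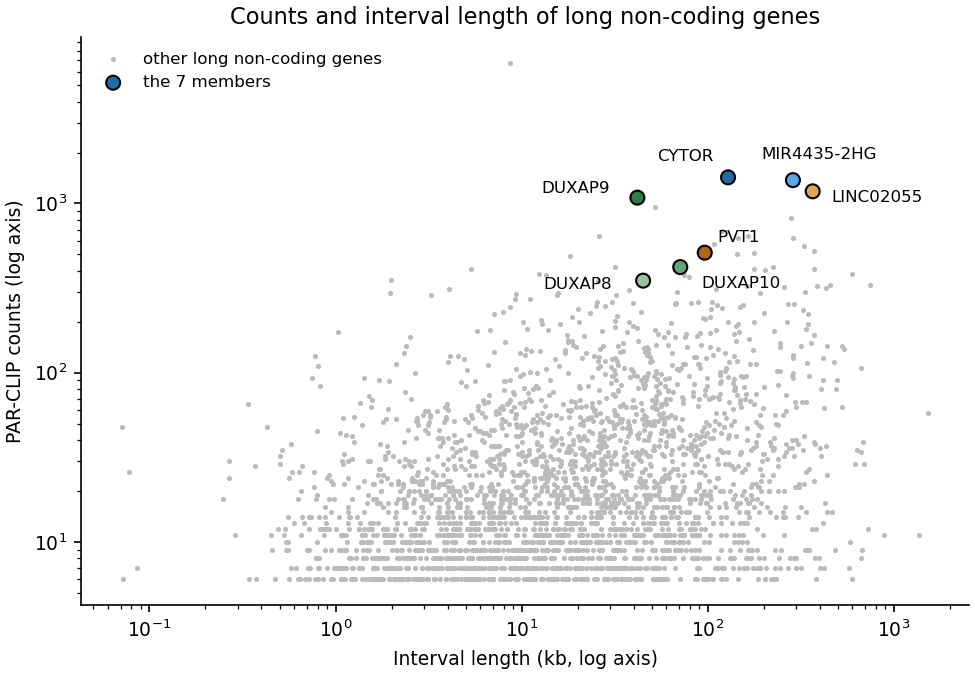
Counts against interval length, both on log axes, for the 2809 long non-coding genes, with the 7 members coloured and labelled. The members lie high for intervals of 41.9 to 367 kb, with MALAT1 as the grey point above them at 6801 counts. Other grey points lie above PVT1, DUXAP10 and DUXAP8, among them ZBTB47-AS1 with 950 counts over 52.4 kb.

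With 1 sample, no likeness of pattern across samples could be measured, so the genes next to each member by count are named instead. Below DUXAP9 came ZBTB47-AS1, an antisense gene with 950 counts. PVT1 stood between unnamed genes with 513 and 505 counts. Above DUXAP10 was EPIC1 with 423 counts, and above DUXAP8 was NEAT1, the scaffold RNA of paraspeckles, with 351. DUXAP8 and NEAT1 had nearly the same count but not the same level per length, with 7.78 counts per kb for DUXAP8 and 176.6 for NEAT1 in the 1.99 kb listed for it. That interval need not span the whole of NEAT1, so its count and level may describe only a part of the gene.

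Other lncRNAs known from tumours ranged from the floor to the top of the table. Of a list of 33 such genes without the members, 18 were listed, with a median of 34 counts against 17 for all long non-coding genes. MALAT1 (6801 counts), NORAD, which binds Pumilio proteins (411), and NEAT1 (351) were above DUXAP8, the lowest member. GAS5 and SNHG1, host genes of small nucleolar RNAs, had 314 and 286 counts, and LINC-PINT, a p53-induced RNA, had 159 over 166 kb. TUG1 had 54, LUCAT1 37, KCNQ1OT1 31 and MIR31HG 18 over 104 kb. CRNDE had 9, MIR17HG, which hosts a microRNA cluster driven by MYC, 7, and HOTAIR, from the HOXC cluster, 6. The other 15 were not listed, among them H19, MEG3, UCA1, CDKN2B-AS1 and LINC00511.

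Per kb the picture differed, and several of these genes have short intervals. MALAT1 had 781 counts per kb, SNHG1 88.03, NORAD 77.0 and GAS5 76.8, and with NEAT1 these 5 were above the 25.8 of DUXAP9, the highest member. GAS5 overlaps another listed gene and may share its reads. Long genes on the list were below all 7 members. So were the shorter MIR17HG, CRNDE and HOTAIR, while the other shorter genes were above the lowest member. LINC02055, the lowest member, had 3.22 counts per kb, against 0.956 for LINC-PINT, 0.338 for KCNQ1OT1, 0.173 for MIR31HG and 0.0840 for PCAT1.

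**Figure D5:**
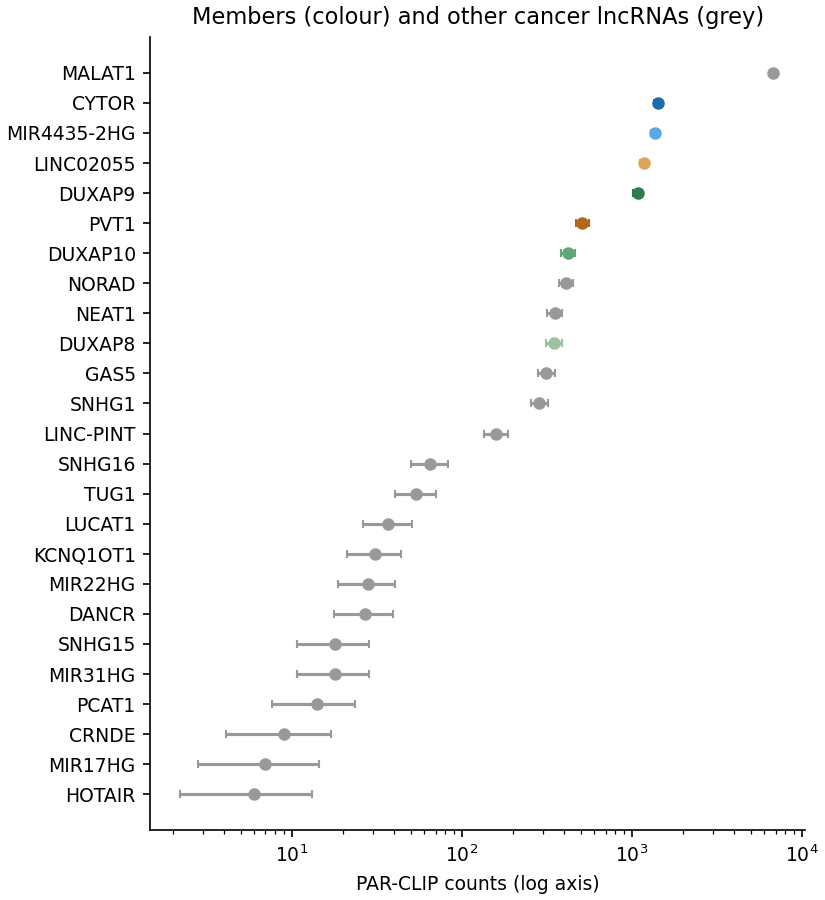
Counts (log axis) of the 7 members (colour) and of the 18 listed genes among 33 other cancer lncRNAs (grey), with 95% Poisson intervals as error bars. CYTOR to DUXAP9 lie between 1427 and 1083 counts below MALAT1, and DUXAP8 lies among NEAT1 and GAS5.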

How the data were processed

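Per the labels, the authors merged the sequencing data of 2 replicates, and the deposited file gives whole-number counts per Ensembl gene, with interval and biotype. Bowtie, bedtools and build hg19 are named in the submitters' processing notes, while their versions and roles, the use of strand and what was counted are not stated there. The counts were not scaled, and an interval need not span a whole gene. Symbols were paired through a table of Ensembl identifiers (16520 of 17201), with RefSeq synonyms for list genes. DUXAP8 has 2 identifiers, and the one covering the whole transcript was used. Counts per kb are counts over interval length, and percentiles place tied genes midway. Named genes are the members, genes overlapping them, the nearest 2 on each side, the next by count, and listed genes of 7 lists (markers included), plus those said to be named after their values were seen. Members and lists were chosen with earlier results of these data known. Analyses used Python 3.11.15, pandas 2.3.3 and SciPy 1.17.1.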

Additional observations from a re-analysis of the deposited data

How the results depend on the processing

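Of 20 alternative values for the summary results, 9 lay within 1.5 times the reported count or within the interval of the reported share, and 11 did not. Among the 9, the number of other cancer lncRNAs listed was 15 at a minimum count of 10 and 16 without overlapping genes, against 18. Leaving out genes that overlap another listed gene left 3 of the 7 members (CYTOR, PVT1 and LINC02055), all 3 among the 20 highest long non-coding genes and at or above the 90th percentile for their length. Of the 7, 5 were among those 20 by counts and 0 by counts per kb. The members' share of the summed long non-coding count, 5.19%, was 8.35% without overlapping genes, 12.3% among lincRNA genes alone, 3.54% with pseudogenes included and 0.465% by counts per kb. The share without overlapping genes is that of the 3 members left, and the share among lincRNA genes leaves out PVT1 and DUXAP8, which are annotated as processed transcripts. CYTOR's share of its pair was 50.9% by counts and 69.9% per kb. DUXAP9's share of the DUXAP counts was 58.4% by counts, 65.4% per kb and, in an alternative chosen after seeing the data, 66.1% without the genes inside the intervals. All 7 stayed at or above the 90th percentile for length with 20 length groups and among long non-coding genes alone. Of 17 alternative percentiles for single members, 14 stayed within a binomial interval over the genes of the length group, which is no error of the counts, and 3 moved up, each among long non-coding genes alone (CYTOR to 100, LINC02055 to 99.6 and DUXAP8 to 99.3). No paired analysis was possible because the 2 replicates entered as a single merged file, so that none could be left out either. HOTAIR and MIR17HG, close to the lowest count of 6, are not resolved from each other at this depth.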
